A study of Homo sapiens with 12 samples.

Results

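RPL22L1 and a set of other ribosomal protein paralogs were followed in human colorectal cancer cells after knockdown of BRG1. The set names 8 genes: RPL22L1 and RPL22, RPL3 and RPL3L, and the paralogs RPL39L, RPL7L1, RPL26L1 and RPL36AL. A member was read from the array feature annotated to its symbol, the feature with the highest mean being kept for each gene, out of 17687 named genes in all. Of the 8 members 7 had a feature, 1 each, and RPL3 was not analysed here. RPL22L1 was chosen by its measured fall after BRG1 knockdown in DLD1 cells and the others as paralogs, so its change in that line is given as a description, without a test.

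Total RNA was hybridised to 12 single-colour arrays, 1 per sample, in 4 groups of 3: DLD1 cells given an siRNA against BRG1 (DLD1 siBRG1), DLD1 cells given a control siRNA (DLD1 siControl), HCT 116 cells given the siRNA against BRG1 (HCT 116 siBRG1) and HCT 116 cells given the control siRNA (HCT 116 siControl). DLD1 and HCT 116 are established colorectal cancer lines. BRG1 is the ATPase of SWI/SNF chromatin remodelling complexes encoded by SMARCA4, and the study asked what its suppression does in such cells. The labels name neither separate cultures nor the siRNA sequence, so p-values measure the spread between these arrays, which may be technical.

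The ribosome is built from ribosomal RNA and a fixed set of ribosomal proteins, nearly all of them made from 1 expressed gene each, beside many processed pseudogenes. A few have a second expressed gene, a paralog, whose protein can take the same place in the ribosome or has taken on a tissue-restricted or assembly role. RPL22 is a protein of the large subunit that binds RNA, and in mouse it lowers the expression of its own paralog Rpl22l1 by binding the Rpl22l1 messenger RNA.

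The promoters of RPL22L1 and RPL22 are shown because these genes form the pair whose members differed most in their measured change. Each line gives the 250 bases before the RefSeq start (GRCh38.p14, gene strand, 5′ to 3′), from chr3:170870196-170870445, minus strand, for RPL22L1 and chr1:6199596-6199845, minus strand, for RPL22. Capitals mark every match to 1 of 5 motifs, searched on both strands.
RPL22L1: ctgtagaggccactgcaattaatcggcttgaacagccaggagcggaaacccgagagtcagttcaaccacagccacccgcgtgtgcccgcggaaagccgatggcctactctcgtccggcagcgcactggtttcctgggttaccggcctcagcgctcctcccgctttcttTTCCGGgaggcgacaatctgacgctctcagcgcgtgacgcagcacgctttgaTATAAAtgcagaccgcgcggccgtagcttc
RPL22: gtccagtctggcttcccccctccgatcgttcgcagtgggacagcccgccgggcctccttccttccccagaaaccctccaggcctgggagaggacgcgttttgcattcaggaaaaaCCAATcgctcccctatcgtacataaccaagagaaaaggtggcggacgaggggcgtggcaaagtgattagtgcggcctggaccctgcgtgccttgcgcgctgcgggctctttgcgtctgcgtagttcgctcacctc
The RPL22L1 window held a TATA box that begins 30 bases before the start and an ETS core, read on the opposite strand, that begins 82 bases before it. The RPL22 window held a CCAAT box that begins 135 bases before the start. No 2 of the matches overlapped. The TATA box was searched as TATAAA, which 10.7% of the 35116 RefSeq promoter windows of this length held. The ETS core, the letters bound by the ETS family of activators, was searched as CCGGAA and was in 14.5% of the windows. The CCAAT box, a common upstream promoter element, was searched by those 5 letters and was in 32.0%. An E-box, the element read by MYC and other helix-loop-helix factors, was searched as CACGTG and was in 6.34% of all windows but in neither of these. An AP-1 site was searched as TGANTCA and was in 6.57% of all windows, again in neither of these. The windows had a GC content of 60.8% for RPL22L1 and 61.6% for RPL22, against a median of 58.0% over all windows. These matches describe the sequence, and no binding was measured.

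SMARCA4, the target of the siRNA, was low in every siBRG1 array. It read 6.29 to 6.55 in DLD1 siBRG1 against 9.95 to 10.31 in DLD1 siControl, and 6.39 to 7.03 in HCT 116 siBRG1 against 9.59 to 10.15 in HCT 116 siControl (log2). Of 7 measured markers of colon epithelium, 5 lay above the array median in all arrays of each group. Of 5 fibroblast markers 1 did in each group, and of 4 leukocyte markers 0 or 1 did. Array medians lay between 6.36 and 6.50.

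RPL22L1 was lower after BRG1 knockdown in both lines. In DLD1 it read 13.27, 12.42 and 11.61 in the siBRG1 arrays and 14.22, 14.26 and 14.22 in the siControl arrays (log2, replicates 1 to 3). All siBRG1 arrays lay below all siControl arrays, and they spread widely while the siControl arrays nearly coincided. The means were 12.43 ± 0.83 in DLD1 siBRG1 and 14.23 ± 0.02 in DLD1 siControl (SD, n = 3 each), a change of −1.80 (SE 0.31, 95% interval −2.47 to −1.12). This was the eleventh lowest change of all genes in DLD1. The siRNA target SMARCA4 had an SD of 0.14 in the same siBRG1 arrays. It read 6.29 to 6.55 there, near the array medians of 6.36 to 6.50, so this SD does not show that the knockdown was even. What set the spread of RPL22L1 among the DLD1 siBRG1 arrays was not tested. Without siBRG1 replicate 3 the change was −1.38. The change in this line chose the gene, so its interval is a description and not a test.

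In HCT 116, RPL22L1 read 13.49, 13.17 and 13.29 in the siBRG1 arrays and 14.12, 14.82 and 14.62 in the siControl arrays. The groups did not overlap. The means were 13.32 ± 0.16 in HCT 116 siBRG1 and 14.52 ± 0.36 in HCT 116 siControl (SD, n = 3 each), so that RPL22L1 fell by 1.20 on the log2 scale (SE 0.31, limma adjusted p = 0.0325). The adjusted p was above 0.05 without siControl replicate 2 (0.13) or 3 (0.0986), or without siBRG1 replicate 1 (0.0536), 2 (0.106) or 3 (0.0966). The change stayed between −1.40 and −1.05 over all 12 fits that left out 1 array. The change in HCT 116 minus that in DLD1 was 0.59 (SE 0.45, 95% interval −0.36 to 1.54). This difference holds the DLD1 change that chose the gene, so its interval too is a description and not a test.

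Ordered by mean, RPL22L1 was lowest in DLD1 siBRG1, then in HCT 116 siBRG1, DLD1 siControl and HCT 116 siControl. The siBRG1 groups of the 2 lines overlapped with each other, and so did the siControl groups, whereas HCT 116 siBRG1 and DLD1 siControl did not overlap. HCT 116 siControl exceeded DLD1 siControl by 0.29 (SE 0.31, limma adjusted p = 0.568), a difference within the spread of the arrays.

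RPL22, the gene of the partner protein, had no change past the threshold in either line. It read 16.43, 16.35 and 16.35 in DLD1 siBRG1 against 16.27, 16.31 and 16.21 in DLD1 siControl. In HCT 116 it read 16.47, 16.53 and 16.58 in siBRG1 against 16.50, 16.42 and 16.39 in siControl. The siBRG1 arrays lay just above the siControl arrays in DLD1, and the groups overlapped in HCT 116. The changes were 0.11 (95% interval −0.21 to 0.43, limma adjusted p = 0.889) in DLD1 and 0.09 (−0.23 to 0.41, limma adjusted p = 0.809) in HCT 116. RPL22 was bright, above 16 in all 12 arrays, and at such brightness a change may read smaller than it is. Values reach 18.05, so 16 is not a ceiling on this scale. Whether brightness made changes read smaller was not tested.

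**Figure D1:**
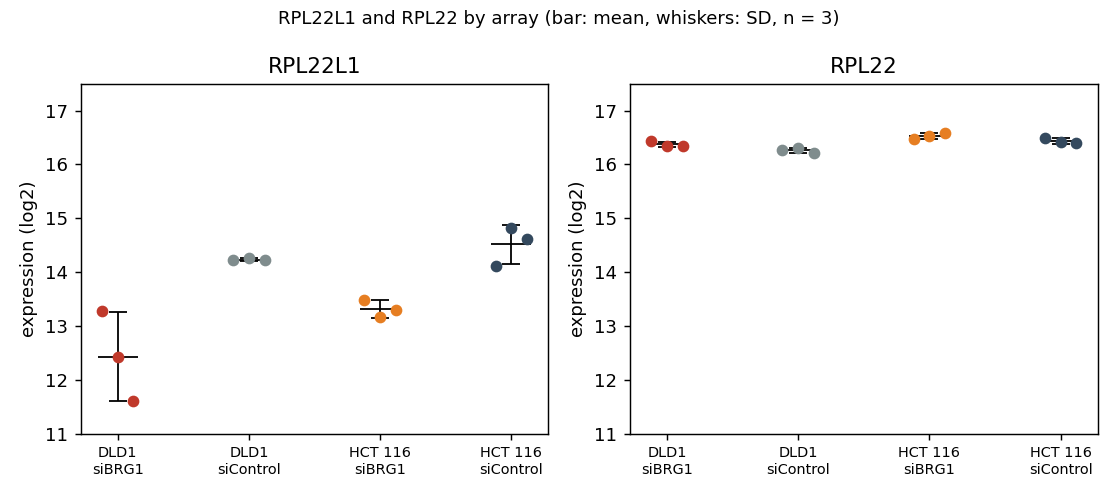
RPL22L1 (left) and RPL22 (right) in each of the 12 arrays, in log2 units, by line and siRNA, with the mean and SD of 3 arrays. RPL22L1 lies between 11.61 and 13.49 in the siBRG1 arrays and between 14.12 and 14.82 in the siControl arrays, while RPL22 stays between 16.21 and 16.58 throughout.

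Subtracting RPL22 from RPL22L1 within each array removes shifts that an array gives to both. The difference was −3.94 ± 0.79 in DLD1 siBRG1 and −2.03 ± 0.03 in DLD1 siControl, and −3.21 ± 0.20 in HCT 116 siBRG1 and −1.91 ± 0.41 in HCT 116 siControl (log2, SD, n = 3 each). It was thus lower by 1.29 log2 units in HCT 116 siBRG1, with no overlap of the arrays (2-sided exact permutation test, p = 0.1, the smallest value that 3 arrays against 3 can give). RPL22 stayed between 16.21 and 16.58 over the arrays, so this difference mostly follows RPL22L1. Whether brightness made the change of RPL22 read smaller was not tested. The difference therefore does not by itself show that the genes changed unequally. Levels of different features are not comparable on an array, so it is not the ratio of the messengers either.

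The other 6 measured members showed no change past the threshold in any comparison when all arrays were fitted with equal weight and without a block. RPL7L1 in HCT 116 was the exception among the alternatives. Over the whole table limma called 0.198% of genes in DLD1 and 6.95% in HCT 116 at an adjusted p under 0.05. Of the 7 measured members 1 was called in each line, RPL22L1 both times, and the DLD1 call is the value that chose it. The remaining 6 gave 0 calls in DLD1, with 0 at an unadjusted p under 0.05, and 0 in HCT 116, with 1 at an unadjusted p under 0.05. Their median change was 0.09 in DLD1 and 0.13 in HCT 116, against 0.01 and −0.01 over all genes tested. RPL39L is among these 6 and lay below its array's median in all 12 arrays, so its lack of a call is not informative. For the difference between the lines (0.334% of genes called) and for the control lines (27.6% called), 0 of the 7 were called, with 0 at an unadjusted p under 0.05 among the 6. For RPL22L1 the difference between the lines holds the DLD1 change that chose it. A gene's siBRG1 and siControl arrays failed to overlap in 15.5% of all genes in DLD1 and 24.9% in HCT 116. The siControl arrays of the lines failed to overlap in 40% of all genes. These shares are the measure for each mention of overlap of a gene's levels between those same groups. No share was taken for paralog-minus-partner values or for siBRG1 arrays of 1 line against arrays of the other. Among the 7 members siBRG1 and siControl arrays failed to overlap for 1 above and 1 below in each line.

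RPL7L1 had the largest change among them. Its protein is related to RPL7, and its yeast counterpart Rlp7 takes part in the assembly of the large subunit. It read 12.97, 13.44 and 13.45 in HCT 116 siBRG1 against 12.61, 12.71 and 12.90 in HCT 116 siControl, with every siBRG1 array above every siControl array. The change of 0.55 (SE 0.19, 95% interval 0.14 to 0.97) did not pass over all genes (limma adjusted p = 0.109). It passed with the replicate block (limma adjusted p = 0.0412), although the numbers were not taken to pair the HCT 116 arrays, and with array weights (0.0446). In DLD1 it read 12.81, 13.06 and 13.28 in siBRG1 against 12.67, 12.95 and 12.95 in siControl, which overlapped, with a change of 0.19 (limma adjusted p = 0.828). RPL7 itself, the large-subunit protein, had changes of 0.15 in HCT 116 and 0.07 in DLD1, and lay above 16 in 10 of the 12 arrays, where a change may read smaller than it is. Within arrays, RPL7L1 minus RPL7 was −3.03 ± 0.19 in HCT 116 siBRG1 and −3.43 ± 0.14 in HCT 116 siControl (log2, SD, n = 3 each). The 2-sided exact permutation test gave p = 0.1, the smallest possible. RPL7L1 minus RPL7 overlapped between the DLD1 groups (exact p = 0.6, without pairing). Its changes between same-numbered DLD1 arrays were −0.03, 0.01 and 0.39. Whether the brightness of RPL7 made its change read smaller was not tested, so this difference does not show that the genes changed unequally.

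RPL36AL encodes a protein almost the same as RPL36A, and both are made in many tissues. RPL36AL read 14.47, 14.00 and 14.19 in DLD1 siBRG1 against 14.58, 14.36 and 14.38 in DLD1 siControl. In HCT 116 it read 14.34, 14.40 and 14.36 in siBRG1 against 14.30, 14.68 and 14.60 in siControl. Both pairs of groups overlapped, and the changes of −0.22 and −0.16 did not pass (limma adjusted p = 0.771 in DLD1 and 0.699 in HCT 116). RPL36A had changes in the opposite direction, 0.25 in DLD1 and 0.19 in HCT 116, which did not pass either (limma adjusted p = 0.74 and 0.655).

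The difference between these 2 genes was also taken within each array. RPL36AL minus RPL36A was 0.46 ± 0.11 in DLD1 siBRG1 and 0.92 ± 0.10 in DLD1 siControl, and 0.61 ± 0.05 in HCT 116 siBRG1 and 0.95 ± 0.07 in HCT 116 siControl (log2, SD, n = 3 each). The siBRG1 arrays lay below the siControl arrays in both lines, by 0.46 in DLD1 and 0.34 in HCT 116. Permuting the labels of the 6 arrays of a line (exact, 2-sided, without pairing) returned p = 0.1 for both lines, as low as 3 arrays against 3 can go. Between same-numbered DLD1 arrays, taken as pairs, the differences were −0.44, −0.50 and −0.44. The genes are alike in their coding sequence, so their probes may share signal.

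RPL26L1, a paralog of the large-subunit protein RPL26, had no change past the threshold, and its groups overlapped. It read 11.98, 10.72 and 11.62 in DLD1 siBRG1 against 11.72, 10.64 and 11.35 in DLD1 siControl, with the array numbered 2 lowest in both groups. Within the same-numbered arrays, which were taken as pairs in this line, siBRG1 was higher in 3 of 3, by 0.26, 0.07 and 0.26, and the change did not pass with that block (limma adjusted p = 0.634). RPL22 and RPL7L1 were also higher, and RPL36AL lower, in 3 of 3 such DLD1 pairs, and none of them passed with the block. In HCT 116, RPL26L1 read 11.18, 11.25 and 11.23 in siBRG1 against 10.72, 11.17 and 11.42 in siControl. The changes did not pass in either line (0.20 in DLD1 and 0.12 in HCT 116, limma adjusted p = 0.914 and 0.895). RPL26 had changes of 0.10 in DLD1 and 0.15 in HCT 116, at levels above 16 in all 12 arrays. RPL26L1 minus RPL26 within arrays overlapped as well (exact p = 0.7 in DLD1 and 0.8 in HCT 116, without pairing), and its differences between same-numbered DLD1 arrays were 0.16, −0.05 and 0.18.

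RPL3L and RPL39L are known as tissue-restricted paralogs, RPL3L of striated muscle and RPL39L of the male germ line and some tumours. RPL3L read 7.98 to 9.16 over the 12 arrays, above every array median. Its changes were −0.19 in DLD1 (95% interval −0.83 to 0.46) and 0.14 in HCT 116 (−0.51 to 0.78), and the groups overlapped in both lines. RPL39L read 2.97 to 4.25, below its array's median in all 12 arrays, a range in which signal and background are not separable. Its changes of 0.08 and 0.23 therefore say nothing of whether it responded. Their partners RPL3 and RPL39 were not analysed here.

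**Figure D2:**
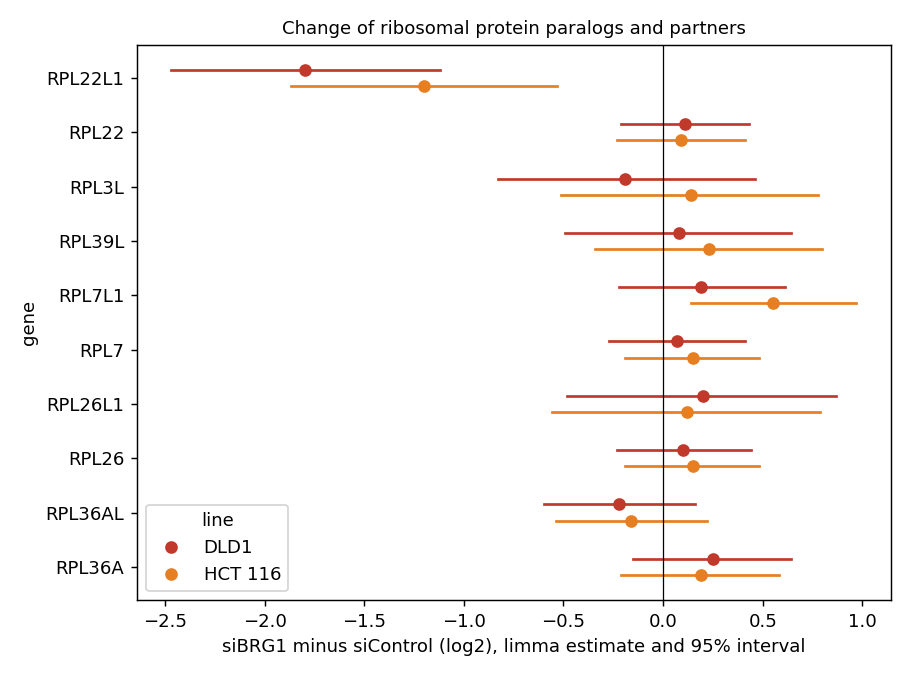
Change after BRG1 knockdown (siBRG1 minus siControl, log2) of the 7 measured members and of the partners RPL7, RPL26 and RPL36A, with limma's 95% interval, in DLD1 and HCT 116. In HCT 116, before adjustment for all genes, the RPL22L1 interval lies below 0 and that of RPL7L1 above 0. The RPL22L1 value in DLD1 chose the gene, so its interval there is no test. The others span 0.

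**Figure D3:**
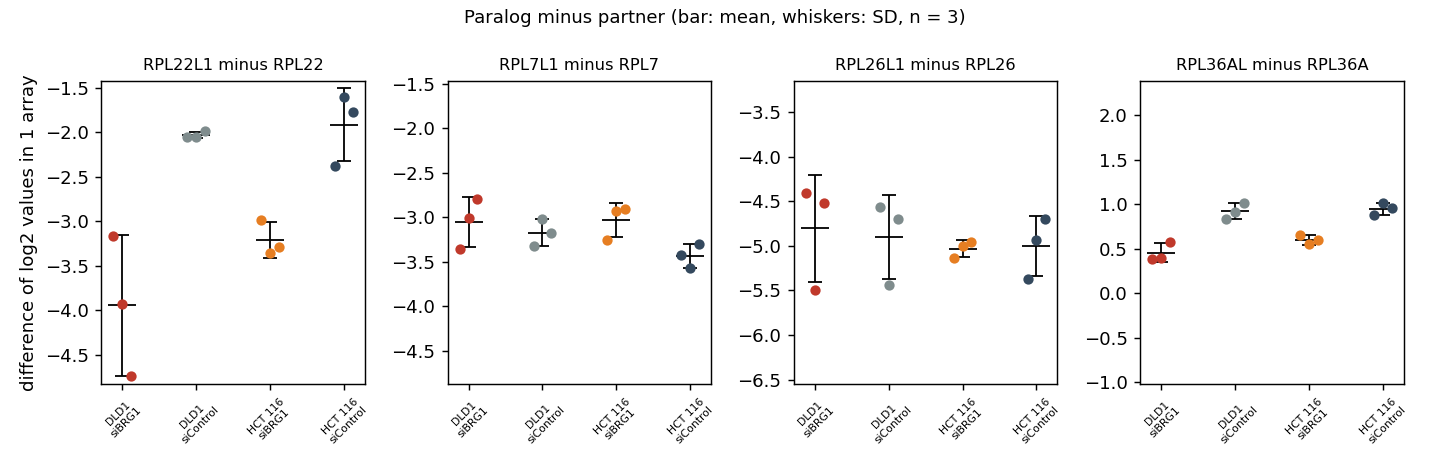
Paralog minus partner within each of the 12 arrays, in log2 units, for the 4 pairs with both genes measured, with the mean and SD of 3 arrays; each panel spans the same range. RPL22L1 minus RPL22 and RPL36AL minus RPL36A are lower in the siBRG1 arrays of both lines, and RPL26L1 minus RPL26 overlaps. The change of RPL22L1 in DLD1 chose that gene.

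Among the paralogs outside the set, RPS27L rose in HCT 116. RPS27L is a paralog of the small-subunit protein RPS27 and a known target gene of p53. It read 13.22, 13.23 and 13.28 in HCT 116 siBRG1 against 11.41, 11.74 and 11.67 in HCT 116 siControl, far apart beside their spread (change 1.64, SE 0.17, limma adjusted p = 7.72e-05). In DLD1 it read 11.51, 11.43 and 11.65 in siBRG1 against 11.21, 11.26 and 10.93 in siControl, without overlap and without passing (change 0.40, limma adjusted p = 0.406). The change in HCT 116 exceeded that in DLD1 by 1.24 (SE 0.24, limma adjusted p = 0.039), but the adjusted p was between 0.055 and 0.12 whichever of the 12 arrays was left out, and 0.0519 with the replicate block. RPL10L, a testis paralog of RPL10, read 4.08 to 5.08 over the arrays, under every array median, so its change of −0.61 in HCT 116 (limma adjusted p = 0.0834, and 0.0331 with the replicate block) is not read further.

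The canonical ribosomal protein genes gave no call after BRG1 knockdown. Of the 80 listed 46 had a feature of their own, 26 of the large and 20 of the small subunit. Limma called 0 of 46 in DLD1, with 2 at an unadjusted p under 0.05, and 0 of 46 in HCT 116, with 0 at an unadjusted p under 0.05. Their median change was 0.11 in DLD1 and 0.15 in HCT 116, with 35 of 46 and 42 of 46 above 0, against 9207 and 8510 of 17687 over all genes. In DLD1 the changes ran from −0.43 (RPL10A) to 0.39 (RPL37). In HCT 116 they ran from −0.37 (RPL10A) to 0.41 (FAU, the fusion gene that encodes RPS30). RPL22L1 and RPS27L lay outside these ranges in both lines, RPS27L barely so in DLD1 (0.40), and RPL7L1 and RPL10L did in HCT 116. The DLD1 change of RPL22L1 chose the gene, so its place outside the range there was set beforehand. Several canonical genes, RPL12 and RPS15 among them, lay above 16 in all 12 arrays. There a change may read smaller than it is, which was not tested. Between the control lines 0 of 46 were called as well, with 6 at an unadjusted p under 0.05, although 27.6% of all genes were. The differences there ran from −0.54 (RPL29) and −0.52 (RPL27) to 0.40 (RPL37). Many of these genes have processed pseudogenes, so their features may also take up signal from near-identical copies.

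**Figure D4:**
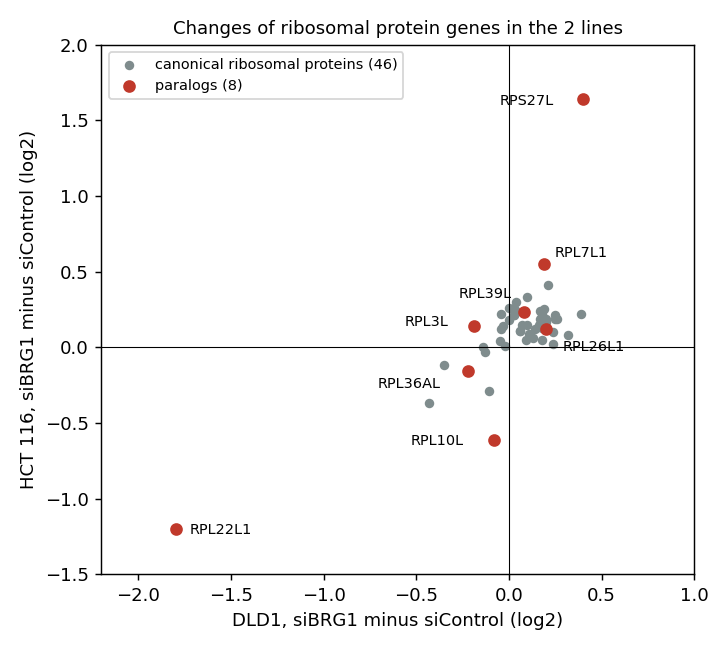
Change after BRG1 knockdown (log2) in DLD1 (horizontal) and HCT 116 (vertical) of 46 canonical ribosomal protein genes (grey) and 8 paralogs (red), 1 point per gene. The canonical genes lie between −0.43 and 0.41 in both lines, RPL22L1 lies at −1.80 and −1.20, and RPS27L at 0.40 and 1.64. The DLD1 value of RPL22L1 chose the gene.

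Of the genes that assemble the large subunit 1 was called after BRG1 knockdown, in HCT 116. Of 44 assembly factors 39 were measured. In DLD1 limma called 0 of 39 (0.198% of all genes), with 6 at an unadjusted p under 0.05, against 1860 of 17687 over all genes. In HCT 116 it called 1 of 39, which is 2.56% against 6.95% of all genes, with 7 at an unadjusted p under 0.05, against 3615 of 17687. There the siBRG1 arrays of 10 factors lay above and of 2 below all siControl arrays, against 24.9% of all genes without overlap. The median change was −0.01 in DLD1 and 0.14 in HCT 116. The 1 called was SBDS, which with EFL1 frees the maturing large subunit from EIF6. It read 12.44, 13.03 and 12.91 in HCT 116 siBRG1 against 11.42, 12.19 and 12.02 in HCT 116 siControl, and rose by 0.92 (SE 0.24, limma adjusted p = 0.0345). The adjusted p was above 0.05 without siControl replicate 1 (0.111) or 3 (0.066), or without siBRG1 replicate 2 (0.13) or 3 (0.121), and also with each line fitted alone (0.0711). Between the control lines, 7 factors were higher and 2 lower in HCT 116 siControl than in DLD1 siControl, 23.1% of the list against 27.6% of all genes. NLE1 (1.24) and WDR12 (0.95), both of large-subunit maturation, were higher in HCT 116 siControl, and EFL1 was lower (−0.97; limma adjusted p = 0.000323, 0.00066 and 0.000747).

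Free large-subunit proteins bound to 5S ribosomal RNA are known to inhibit MDM2, the ubiquitin ligase of p53, so the genes of that axis were read beside the paralogs. Of 10 listed 7 were measured. MDM2 rose by 1.25 in HCT 116 (SE 0.21, limma adjusted p = 0.00258) and CDKN1A, the p53-induced cell cycle inhibitor, by 2.59 (SE 0.43, limma adjusted p = 0.00237). In DLD1 they had changes of 0.56 and −0.07, with limma adjusted p = 0.329 and 0.986, and the difference between the lines did not pass for either (limma adjusted p = 0.487 and 0.0898). That of CDKN1A, 2.66 higher in HCT 116, did pass with the replicate block (limma adjusted p = 0.0251) and with array weights (0.0378). The 5S RNA partner gene RPL11 had changes of 0.26 in DLD1 and 0.19 in HCT 116. RPF2 and RRS1, which load that particle onto the large subunit, had changes of 0.34 and −0.01 in DLD1 and of 0.58 and 0.49 in HCT 116. HEATR3, which helps to import it into the nucleus, had changes of −0.03 and −0.30, and MDM4, the relative of MDM2, of 0.31 and 0.13. None of these 5 passed in either line with all arrays, RPF2 in HCT 116 coming closest (limma adjusted p = 0.0875). RPF2 did pass there without siBRG1 replicate 1 (change 0.75, limma adjusted p = 0.0361), with the replicate block (0.0473), among genes above the median level (0.0463), with a trended robust prior (0.0251) and with array weights (0.0339). MDM4 was higher by 1.37 in HCT 116 siControl than in DLD1 siControl (SE 0.31, limma adjusted p = 0.00358), as were MDM2 (0.94) and CDKN1A (3.29).

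The genes whose levels were most like RPL22L1 over the 12 arrays were TYMS (Pearson's r 0.96), which encodes thymidylate synthase, the RNA exosome nuclease gene DIS3 (0.95), the mitotic cyclin gene CCNB1 (0.94), the mitochondrial import channel gene TOMM40 (0.93) and AUNIP (0.92). The genes most opposed were the ubiquitin ligase gene RNF6 (−0.94), the membrane repair gene MYOF (−0.93), the p53 cofactor gene JMY (−0.92), AMMECR1 (−0.92) and RAB3GAP1 (−0.91). Without the 2 arrays farthest from the RPL22L1 median, DLD1 siBRG1 replicates 2 and 3, the r of TYMS, DIS3, CCNB1, TOMM40 and AUNIP was 0.94, 0.93, 0.83, 0.89 and 0.79. That of RNF6, MYOF, JMY, AMMECR1 and RAB3GAP1 was then −0.93, −0.75, −0.91, −0.79 and −0.83. The 12 points fall into 4 groups, and genes that shift between siBRG1 and siControl share that shift. Of the genes alike in level, DIS3 had changes of −1.33 in DLD1 and −0.77 in HCT 116 and TOMM40 of −1.43 and −1.04. After each group's mean was subtracted, PPP1CA (0.98), SDC1 (0.95), FDPS (0.94), H2AZ1 (0.93) and CBS (0.93) varied most like RPL22L1 among replicates. RNF6, ZNF562 and ITFG2 (−0.94 each), NRIP1 and SIM2 (−0.93 each) varied most against it. DLD1 siBRG1 replicates 1 and 3 lay farthest from their group's RPL22L1 mean (13.27 and 11.61 against 12.43), so they weigh most in these r. Among the other members the r of levels with RPL22L1 ran from −0.62 for RPL7L1 to 0.76 for RPL36AL, with RPL22 at −0.14.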

How the data were processed

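The deposited table holds log2 expression values. The submitters' processing notes name RMA and Affymetrix Power Tools as what the authors used, without versions, and no genome build is given. RMA corrects background, equalises the arrays and summarises probes. The table has 21448 features, from 2.16 to 18.05, without detection calls. Values above 16 exceed a 16-bit scanner's range, so the scale includes a step the labels do not name.

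Features were named through the array annotation and current RefSeq symbols: 17709 had 1 symbol, 0 several and 3739 none. For 20 genes with several features the one with the highest mean was kept, leaving 17687 genes. Samples were grouped by title; in 4 HCT 116 samples the source name differs from the title in a number. Group means of all 12 arrays were fitted with limma 3.58.1 in R 4.3.3 (lmFit, eBayes; 8 residual and 6.66 prior degrees of freedom), and each contrast's p-values were adjusted over the 17687 genes (Benjamini-Hochberg), with a threshold of 0.05. Paralog-minus-partner values were tested by exact permutation, without pairing. The steps were tested on simulated data. The number of arrays limits precision.

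The members, lists and tests were chosen with earlier results of these data known. Genes were named by rule: members and partners, listed paralogs and genes of the MDM2 axis, the largest changes of the 2 other lists, and the 5 genes most and least correlated with RPL22L1.

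Same-numbered siBRG1 and siControl arrays deviated together in DLD1 (correlations 0.49, 0.46 and 0.29 across genes), so the numbers were taken to pair them there, from the data and not the labels; in HCT 116 (0.30, 0.15 and 0.03) they were not. Promoter sequences are RefSeq's (GRCh38.p14); 6 of the 8 members matched by symbol, all but RPL3L and RPL39L, and 2 are printed. Alternatives were a replicate block, lines fitted alone, quantile normalization, median centring, a filter on dim genes, averaging a gene's features, a trended robust prior, array weights and each array left out.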

Additional observations from a re-analysis of the deposited data

Results flagged for a closer look

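The response of RPS27L to BRG1 knockdown differed between the lines by a test of the difference itself: the change in HCT 116 minus that in DLD1 was 1.24 on the log2 scale (SE 0.24, limma adjusted p = 0.039), higher in 3 of 3 siBRG1 arrays than in any siControl array in each line. The adjusted p lay between 0.055 and 0.12 in the 12 fits that left out 1 array. With the replicate block it was 0.0519. No member of the paralog set passed this test, which for RPL22L1 holds the DLD1 change that chose it. Groups of 3 arrays are too small for a test of single outlying arrays.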

How the results depend on the processing

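RPL22L1 kept its direction in DLD1 (−2.22 to −1.38) and in HCT 116 (−1.40 to −1.05) under every alternative run. Of the alternatives to the members' changes over all 4 contrasts, 525 left a change on its side of the threshold, 15 lost a call, all of RPL22L1, 2 gained one, and 0 turned the direction of a called change. The count of members called in DLD1 was 1, RPL22L1, by the change that chose it. Its calls and lost calls in that line are therefore a description and not a test. The DLD1 count was 0 with each line fitted alone, and with 1 array left out it was 1 in 3 of the 12 fits and 0 in the others. In HCT 116 it was 1; it was 2 with the replicate block and 2 with array weights, where RPL7L1 passed (limma adjusted p = 0.0412 and 0.0446), and 0 to 1 with 1 array left out. The replicate block changed no other call of a member; RPL22L1 stayed called in HCT 116 (limma adjusted p = 0.0277), and between lines it gives no value because the numbers lie within a line. The canonical ribosomal protein genes called between the control lines, 0 in all, were 4 among genes above the median level, 8 with a trended robust prior, 2 with array weights and 0 to 3 with 1 array left out. RPL39L lay under the filter on dim genes and gave no value there. Signal near background limits RPL39L and RPL10L, and brightness may limit RPL22, RPL7 and RPL26, which was not tested.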
